A study of Mus musculus with 8 samples.

Results

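The genes described here are 7 inflammatory CC chemokines (Ccl2, Ccl3, Ccl4, Ccl5, Ccl7, Ccl8 and Ccl12) and 2 of their receptors (Ccr1 and Ccr2), 9 of the 22180 genes measured. They were taken as a named list, and each was read from 1 probe set that carries that gene symbol alone. The study measured total brain RNA on 8 arrays from mice immunized with myelin oligodendrocyte glycoprotein (MOG) and taken on day 14, which the labels call the maximum of the disease. MOG immunization provokes T cells against central nervous myelin and serves as a mouse model of multiple sclerosis. All 4 groups were immunized and differ by genotype and treatment, with 2 arrays each. Wild-type mice, recognised by a black coat, received PBS (wild-type PBS) or NDP-MSH (wild-type NDP-MSH). Mice of genotype C57BL/6Je/e, recognised by a yellow coat, likewise received PBS (e/e PBS) or NDP-MSH (e/e NDP-MSH). The e/e allele inactivates the melanocortin receptor Mc1r in the whole animal, and NDP-MSH is a long-lived synthetic form of the melanocortin peptide alpha-MSH. It went into a vein on days 8, 10 and 12 after immunization, 5 µg for each mouse. The labels give neither the route of PBS nor the age or sex of the mice. They do not state that a group's arrays come from separate animals, and p-values here measure only how far these samples spread, which may be technical.

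Chemokines are small secreted proteins that steer leukocytes along a concentration gradient, and the CC class is named for a pair of adjacent cysteines. Ccl2, Ccl7 and Ccl12 are ligands of Ccr2, the receptor by which inflammatory monocytes leave the bone marrow and enter inflamed tissue. Ccl3 and Ccl5 bind Ccr1, and Ccl4 is a close relative of Ccl3. In MOG-immunized mice these ligands are made in the inflamed central nervous system by glia, endothelium and infiltrating leukocytes, and mice without Ccr2 recruit few monocytes to it.

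The ligand genes lie on chromosome 11 in the RefSeq annotation of GRCm38.p6, in the order Ccl2, Ccl7, Ccl12, Ccl8, Ccl5, Ccl3 and Ccl4, and Ccr1 and Ccr2 lie on chromosome 9. RefSeq promoter sequences could be matched for 5 of the 9 (Ccl3, Ccl8, Ccl12, Ccr1 and Ccr2). The 250 bases before the start of 3 ligand genes are shown. Ccl12 and Ccl8 were picked because they are adjacent in that gene order but differed in how far the e/e PBS arrays lay apart. Ccl3 was picked because it shared the order of the e/e arrays with Ccl8. Ccl2 and Ccl5 shared it too, but no promoter sequence was matched for them. Capitals mark a TATA box (TATAAA), and the windows are Ccl12 at chr11:82101595-82101844 on the plus strand, Ccl8 at chr11:82114935-82115184 on the plus strand and Ccl3 at chr11:83649379-83649628 on the minus strand.
Ccl12: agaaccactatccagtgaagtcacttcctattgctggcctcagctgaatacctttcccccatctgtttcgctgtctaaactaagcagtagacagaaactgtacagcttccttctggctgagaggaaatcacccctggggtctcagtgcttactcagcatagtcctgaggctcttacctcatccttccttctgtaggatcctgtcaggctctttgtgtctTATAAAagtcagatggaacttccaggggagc
Ccl8: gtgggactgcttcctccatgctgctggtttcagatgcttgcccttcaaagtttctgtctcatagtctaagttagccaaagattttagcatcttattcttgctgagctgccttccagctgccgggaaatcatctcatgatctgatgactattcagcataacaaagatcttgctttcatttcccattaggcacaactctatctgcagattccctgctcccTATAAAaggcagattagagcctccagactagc
Ccl3: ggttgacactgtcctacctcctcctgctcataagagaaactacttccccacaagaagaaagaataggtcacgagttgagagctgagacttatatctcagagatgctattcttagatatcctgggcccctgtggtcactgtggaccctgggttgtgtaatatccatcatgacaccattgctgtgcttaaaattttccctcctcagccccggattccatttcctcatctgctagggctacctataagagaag
The TATA box began 31 bases before the start in Ccl12 and 32 bases before it in Ccl8, and 12.3% of 32536 such windows hold these letters on either strand. The Ccl12 and Ccl8 windows had 57.1% identical positions in a global alignment, where the other 9 pairs of the 5 windows had 43.7% to 50.6%. None of the 5 windows held the letters searched for NF-kB (GGG, any 2 bases, then TTTCC, present in 1.4% of all windows), for the interferon-stimulated response element (GAAA, any 2 bases, then GAAA, 2.98%), for the GAS element (TTCNNNGAA, 7.04%) or for C/EBP (TTNNGCAA, 9.57%), both strands counted. This says only that these letters are not in these windows.

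Values below are the authors' processed values, taken as log2, and centred for each gene on its median over the 8 arrays. They show differences between arrays and no absolute level, so levels were not compared between genes. The step size left by single-precision rounding places the signal before centring at 4 to 8 on at least 1 array for all 9 genes. The same step placed 14 of 15 neuron, astrocyte and oligodendrocyte markers at 8 or above on every array, as brain tissue should give. Of the markers used below, 1 of 10 for monocytes and macrophages, 1 of 7 for microglia, 0 of 6 for T cells and 0 of 7 for neutrophils were placed there. Of all 33793 probe sets, 26052 were placed at 4 to 8 and 7681 at 8 or above.

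The arrays did not follow the groups alone. Xist, the RNA of the inactive X chromosome in females, was lowest on the e/e NDP-MSH arrays (-4.46 and -4.56) and between -0.82 and 0.67 on the other 6. The Y-linked Eif2s3y was high on the second e/e PBS array (2.04) and on both e/e NDP-MSH arrays (2.78 and 2.87), and between -0.19 and 0.02 on the remaining 5. In e/e mice the treatment therefore cannot be told apart from these sex-linked differences. Wild-type NDP-MSH 1 alone had high pituitary hormone transcripts (prolactin, Prl, at 6.97), and the cerebellar gene Cbln3 was low in both wild-type NDP-MSH arrays (-3.19 and -2.67). The median of 4 cerebellar genes was -2.89 and -2.35 on these arrays and between -0.08 and 0.36 on all others. In wild-type mice the treatment therefore cannot be told apart from this cerebellar difference. The part of these array differences in the chemokine values was not tested.

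**Figure D1:**
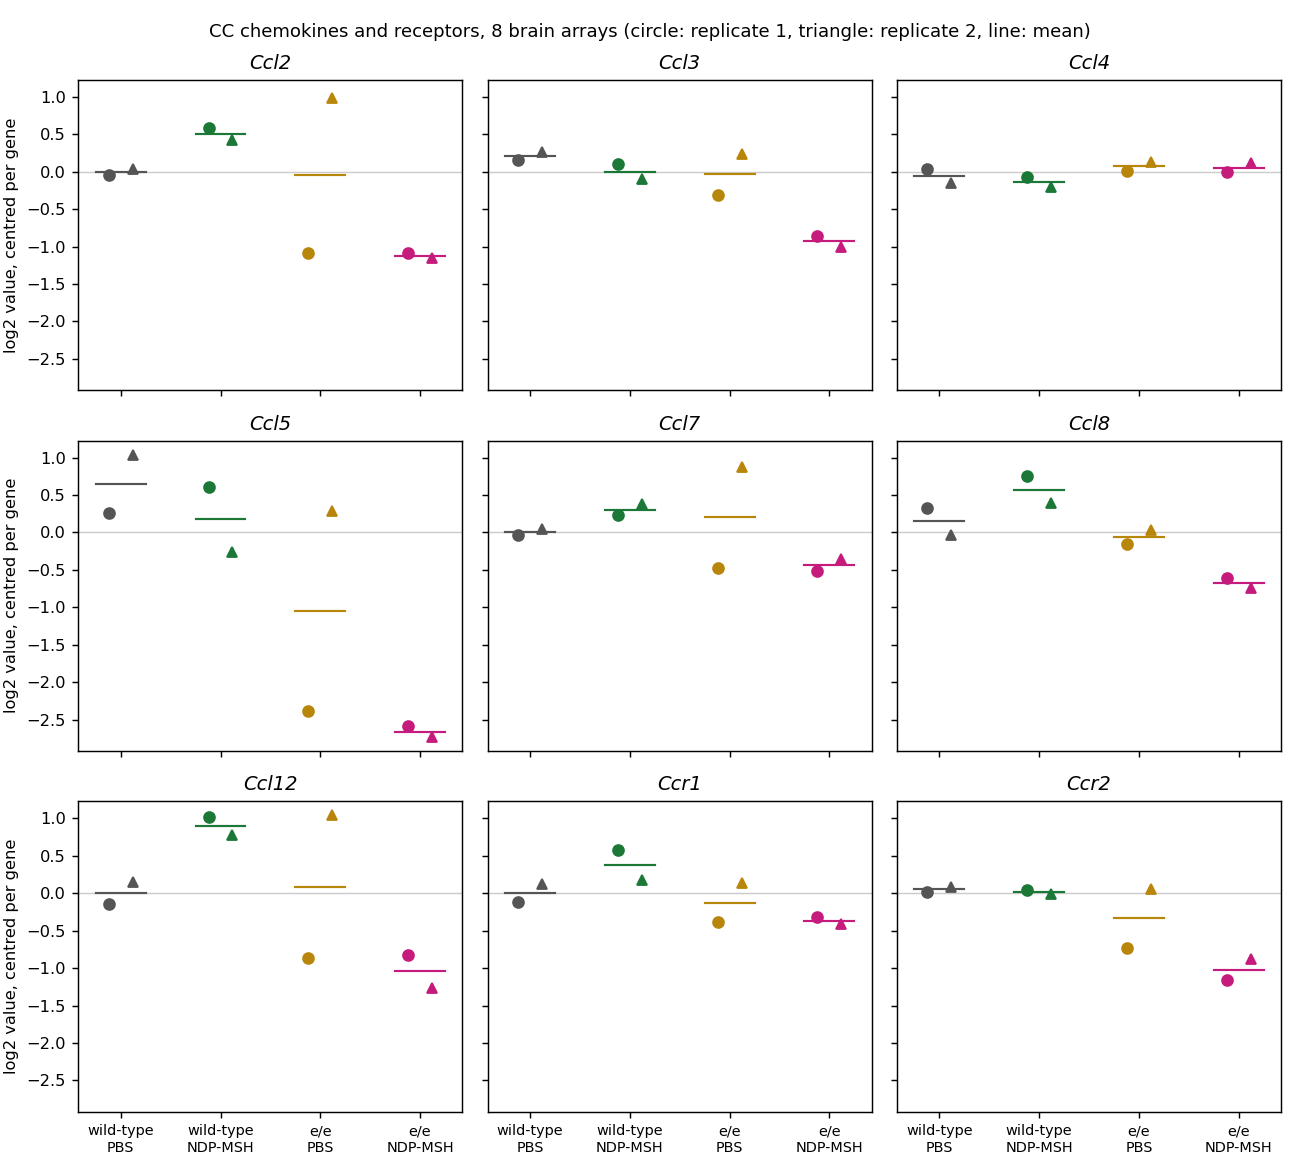
Centred log2 value of each of the 9 genes (vertical axis) on each array, by group (horizontal axis); circles are replicate 1, triangles replicate 2, and lines group means. e/e PBS 1 lies beside the e/e NDP-MSH arrays for Ccl2, Ccl5, Ccl7, Ccl12, Ccr1 and Ccr2, while Ccl4 stays between -0.21 and 0.13.

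Among the ligands of Ccr2, the chief monocyte attractant Ccl2 lay at -0.04 and 0.04 under PBS and at 0.59 and 0.42 under NDP-MSH in wild-type mice. In e/e mice Ccl2 lay at -1.08 and 0.99 under PBS and at -1.09 and -1.15 under NDP-MSH. The e/e PBS arrays thus differed 4.18-fold for Ccl2, more than any pair of wild-type arrays did, and the lower of them was 0.01 above the higher NDP-MSH array. Ccl12 lay at -0.15 and 0.15 under PBS and at 1.02 and 0.78 under NDP-MSH in wild-type mice, and at -0.87 and 1.04 under PBS and -0.82 and -1.27 under NDP-MSH in e/e mice. Ccl7 lay at -0.04 and 0.04 and then 0.23 and 0.38 in wild-type mice, and at -0.48 and 0.88 and then -0.51 and -0.35 in e/e mice, PBS first. For all 3 genes both wild-type NDP-MSH arrays stood above both wild-type PBS arrays, e/e PBS 2 stood highest of all 8, and e/e PBS 1 stood with the e/e NDP-MSH arrays.

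Ccl8, the neighbour of Ccl12, kept the order that Ccl2 had among the e/e arrays but had a narrower gap between the e/e PBS arrays. It lay at 0.33 and -0.03 under PBS and at 0.75 and 0.39 under NDP-MSH in wild-type mice, and at -0.16 and 0.03 under PBS and -0.61 and -0.74 under NDP-MSH in e/e mice. Its e/e PBS arrays differed 1.14-fold, against 3.76-fold for Ccl12, and both stood above both e/e NDP-MSH arrays. In wild-type mice the NDP-MSH arrays stood above the PBS arrays, with 0.39 and 0.33 the nearest pair.

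Among the ligands of Ccr1, Ccl3 lay at 0.15 and 0.26 under PBS and at 0.10 and -0.10 under NDP-MSH in wild-type mice. In e/e mice Ccl3 lay at -0.31 and 0.24 under PBS and at -0.86 and -1.0 under NDP-MSH, with no overlap between the groups. Ccl5, a chemokine that T cells also make, had the widest range of the 9 (13.7-fold between its highest and lowest arrays). It lay at 0.26 and 1.04 under PBS and at 0.61 and -0.26 under NDP-MSH in wild-type mice, and at -2.39 and 0.29 under PBS and -2.59 and -2.73 under NDP-MSH in e/e mice. For Ccl5 the e/e PBS arrays differed 6.4-fold, and e/e PBS 1 was closer to the NDP-MSH arrays than to its own replicate. Ccl4 had the narrowest range (1.26-fold), with values of 0.03 and -0.15, -0.07 and -0.21, 0.01 and 0.13, and -0.01 and 0.11 in the 4 groups in the order of the plot. Whether the probes of Ccl4 and Ccl3 share targets was not tested.

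The receptors ranged less than most ligands. Ccr1, a receptor of myeloid cells, lay at -0.12 and 0.12 under PBS and at 0.58 and 0.18 under NDP-MSH in wild-type mice, and at -0.39 and 0.14 and then -0.32 and -0.41 in e/e mice. Ccr2 lay at 0.01 and 0.09 and then 0.04 and -0.01 in wild-type mice, and at -0.73 and 0.06 under PBS and -1.16 and -0.88 under NDP-MSH in e/e mice. Both receptors were lower in e/e PBS 1 than in e/e PBS 2, and only Ccr2 had both e/e NDP-MSH arrays below both PBS arrays. For Ccr2, e/e PBS 1 (-0.73) was still closer to both NDP-MSH arrays than to its own replicate (0.06). In total brain RNA, fewer cells that express a receptor and less RNA per cell cannot be told apart.

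The first comparison named by the series asks what NDP-MSH does in wild-type mice. Both treated arrays also had low cerebellar transcripts, and that difference cannot be told apart from treatment here. None of the 9 genes passed (limma, adjusted p under 0.05 over all genes), where 0.176% of all genes did. At an unadjusted p under 0.05, 1 of the 9 differed (Ccl8, limma, unadjusted p = 0.0312), where 12.3% of all genes did. Ccl12 was higher by 0.90 ± 0.52 (SE, adjusted p = 0.511), Ccl2 by 0.51 ± 0.54, Ccl8 by 0.42 ± 0.16 (adjusted p = 0.36), Ccr1 by 0.38 ± 0.20 and Ccl7 by 0.31 ± 0.36. Ccl5 differed by -0.48 ± 0.76, Ccl3 by -0.21 ± 0.17, Ccl4 by -0.08 ± 0.10 and Ccr2 by -0.04 ± 0.23. These SEs are pooled over all 8 arrays and so include the gap between the e/e PBS arrays. Groups did not overlap for 5 of the 9 on the higher side (Ccl2, Ccl7, Ccl8, Ccl12 and Ccr1) and for 1 on the lower (Ccl3), where 25.3% and 18.9% of all genes did so. The 9 had a median difference of 0.31 and all genes 0.02. Without wild-type NDP-MSH 1, the array with pituitary transcripts, the median was 0.18, with Ccl5 at -0.92, Ccl8 at 0.24 and Ccr1 at 0.18. Without wild-type NDP-MSH 2, Ccl5 was at -0.04 and Ccr1 at 0.58, and quantile normalization took Ccl8 to 0.26. Without any 1 array, and in every other setting tried that could be read, none of the 9 passed (lowest adjusted p = 0.112).

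The second comparison asks the same in e/e mice. All 9 differences were below 0, with a median of -0.68, where 46.3% of all genes were below 0 and the median of all genes was 0.01. None of the 9 passed (limma), and 0% of all genes did. At an unadjusted p under 0.05, 3 of the 9 differed, where 3.56% of all genes did. These 3 were Ccl3 at -0.89 ± 0.17 (unadjusted p = 0.00101), Ccl8 at -0.61 ± 0.16 (0.00544) and Ccr2 at -0.68 ± 0.23 (0.0185). The wider differences of Ccl5 (-1.61 ± 0.76), Ccl12 (-1.13 ± 0.52) and Ccl2 (-1.07 ± 0.54) had intervals that include 0, as had those of Ccl7 (-0.63 ± 0.36), Ccr1 (-0.24 ± 0.20) and Ccl4 (-0.02 ± 0.10). After quantile normalization all 9 were still below 0 but several were smaller, with Ccl5 at -0.78, Ccl2 at -0.70, Ccl3 at -0.59 and Ccr2 at -0.42. Groups did not overlap for 5 of the 9 on the lower side (Ccl2, Ccl3, Ccl5, Ccl8 and Ccr2) and for 0 on the higher, where 14.3% and 16% of all genes did so.

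**Figure D2:**
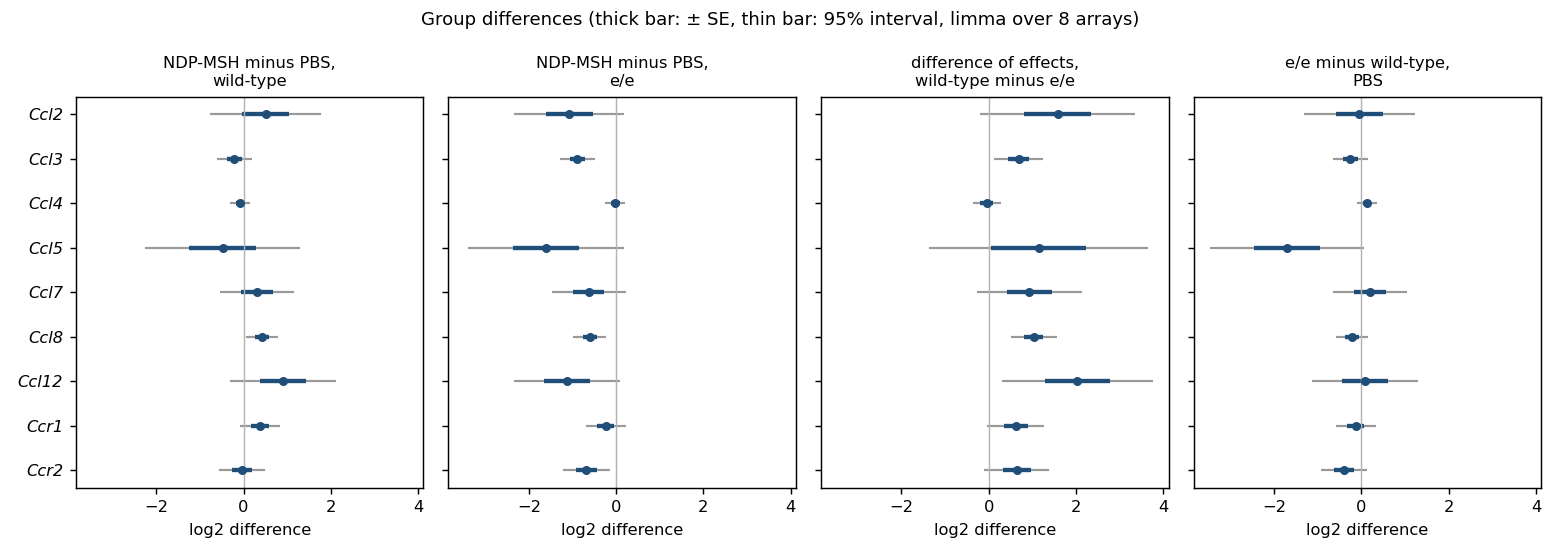
Log2 difference of each gene (horizontal axis) in the 4 comparisons, with ± SE (thick bars) and the 95% interval (thin bars) from limma over 8 arrays. In e/e mice all 9 points lie below 0 and the intervals of Ccl3, Ccl8 and Ccr2 stay below 0.

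The e/e result turned on which PBS array was kept. Without e/e PBS 1, 5 of the 9 genes passed, where 0.23% of all genes did: Ccl2 at -2.10 (limma, adjusted p = 0.00294), Ccl12 at -2.09 (0.0295), Ccl7 at -1.31 (0.0295), Ccl3 at -1.17 (0.0295) and Ccr2 at -1.08 (0.0401). Without e/e PBS 2, 0 of the 9 passed, where 0.018% of all genes did, and Ccl2 differed by -0.04, Ccl12 by -0.18, Ccl7 by 0.06, Ccr1 by 0.02 and Ccl5 by -0.27. Ccl3 and Ccl8 moved least among the genes that were lower by over 0.5, to -0.62 and -0.52 without e/e PBS 2 and to -1.17 and -0.71 without e/e PBS 1. Ccr2 moved to -0.29 without e/e PBS 2 and to -1.08 without e/e PBS 1. Each of these fits leaves 1 PBS array, which is assumed to vary like the other groups. The array kept in the first case, e/e PBS 2, carries the Y-linked signal seen on both e/e NDP-MSH arrays but also Xist (-0.82, against -4.46 and -4.56 there), so it matches neither them nor e/e PBS 1 (Xist 0.56, Eif2s3y -0.02) on both genes.

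**Figure D3:**
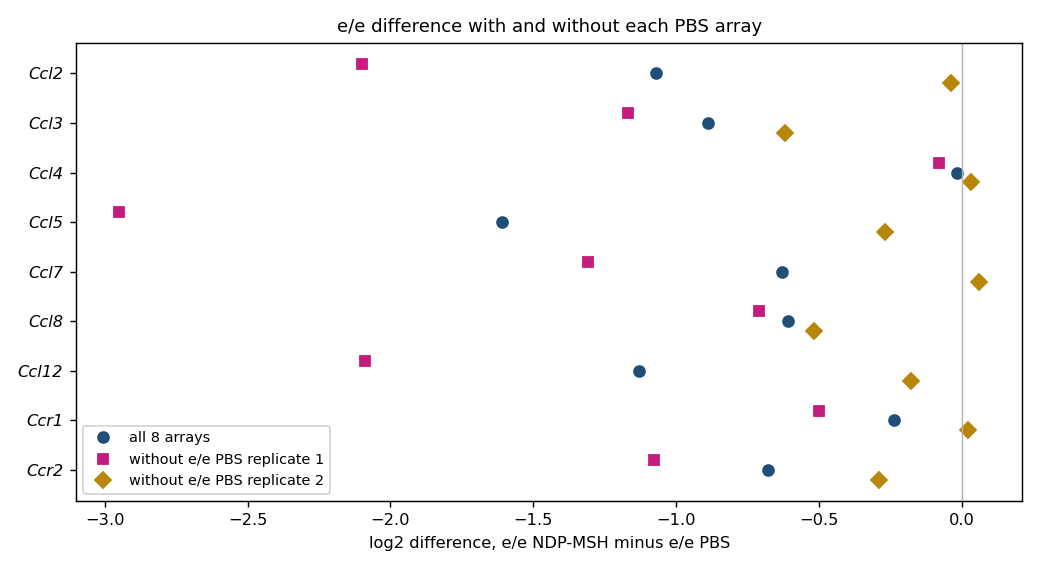
Log2 difference between e/e NDP-MSH and e/e PBS (horizontal axis) for each gene with all 8 arrays, without e/e PBS replicate 1 and without e/e PBS replicate 2. Ccl2 moves from -2.10 to -0.04 between the last 2 settings and Ccl8 from -0.71 to -0.52.

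Whether the NDP-MSH difference itself differed between genotypes was tested as wild-type minus e/e. The cerebellar difference in wild-type mice and the sex-linked one in e/e mice both enter this contrast (Cbln3 -2.99, Xist 3.8). A treatment effect that depends on genotype therefore cannot be told apart from them. The contrast was above 0 for 8 of the 9, with a median of 0.93 where all genes had 0.01. That median was 0.51 after quantile normalization and 0.36 without e/e PBS 2. None of the 9 passed (limma), and 0% of all genes did. At an unadjusted p under 0.05, 3 of the 9 differed, where 7.71% of all genes did. They were Ccl8 at 1.03 ± 0.22 (unadjusted p = 0.00209, adjusted p = 0.416), Ccl3 at 0.69 ± 0.24 (0.0235) and Ccl12 at 2.03 ± 0.74 (0.0269). Ccl2 lay at 1.58 ± 0.77, Ccl5 at 1.14 ± 1.08, Ccl7 at 0.93 ± 0.51, Ccr2 at 0.64 ± 0.32, Ccr1 at 0.62 ± 0.28 and Ccl4 at -0.05 ± 0.14. Quantile normalization took Ccl5 to 0.40, Ccl3 to 0.38 and Ccr2 to 0.36. Without e/e PBS 1 the test passed for 3 of the 9, where 0.0316% of all genes did: Ccl2 at 2.61 (adjusted p = 0.00458), Ccl12 at 2.99 and Ccl7 at 1.61 (both 0.0496). Without e/e PBS 2, 0 of the 9 passed, where 0.0135% of all genes did, and these 3 lay at 0.54, 1.07 and 0.25.

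Under PBS, e/e and wild-type mice were compared with the same e/e PBS arrays, so this comparison shares them with the e/e treatment comparison. The Y-linked Eif2s3y lay at 2.04 on e/e PBS 2 and at 0.02 and -0.07 on the wild-type PBS arrays. Genotype therefore cannot be told apart from this sex-linked difference here. None of the 9 passed (limma), as 0% of all genes did, and none had an unadjusted p under 0.05, where 4.91% of all genes did. Groups overlapped for all 9, where 17.4% of all genes stood higher and 16.7% lower without overlap. Ccl5 differed most, at -1.70 ± 0.76 (adjusted p = 0.971), then Ccr2 at -0.39 ± 0.23 and Ccl3 at -0.25 ± 0.17. Ccl2 (-0.05 ± 0.54), Ccl12 (0.08 ± 0.52) and Ccl7 (0.20 ± 0.36) had small mean differences, with 1 e/e array above both wild-type arrays and 1 below both. Ccl8 (-0.21 ± 0.16), Ccr1 (-0.13 ± 0.20) and Ccl4 (0.13 ± 0.10) made up the rest.

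**Figure D4:**
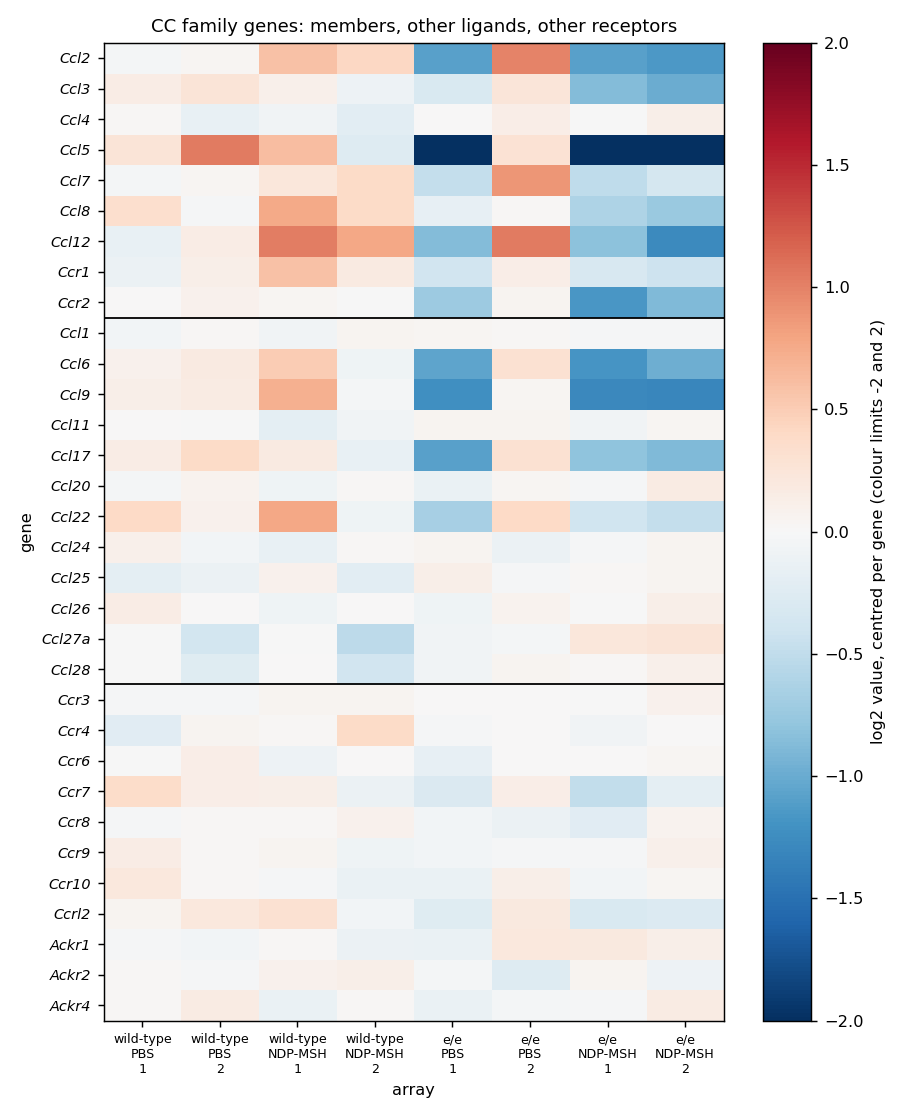
Centred log2 values (colour, limits -2 and 2) of the 9 genes, 12 other CC ligands and 11 other CC receptors (rows, separated by black lines) on the 8 arrays (columns). Ccl6, Ccl9, Ccl17 and Ccl22 are low on the same 3 arrays as Ccl2, Ccl5 and Ccl12, and Ccl5 passes the lower colour limit on them.

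The rest of the CC family was read beside these genes. Of 12 other CC ligands measured, 7 were lower and 5 higher in e/e mice given NDP-MSH, with a median of -0.03, and 0 passed (limma). The lowest p there belonged to the myeloid chemokines Ccl9 (-0.71 ± 0.38) and Ccl6 (-0.70 ± 0.39). Ccl9 was at -1.22 on e/e PBS 1 and at -1.29 and -1.31 on the e/e NDP-MSH arrays, against -0.04 to 0.71 on the other 5 arrays. Ccl6, Ccl17 and Ccl22, the last 2 being ligands of the T cell receptor Ccr4 and chosen after their values were seen, were also below 0 on those 3 arrays. Ccl1, Ccl11, Ccl20, Ccl24 and Ccl26, of which Ccl1, Ccl20 and Ccl24 were likewise chosen after their values were seen, stayed between -0.20 and 0.16 on all arrays. Of 11 other CC receptors 3 were lower and 8 higher (median 0.04), 0 passed, and the lowest p belonged to Ccrl2, which binds chemerin and does not signal (-0.27 ± 0.17), and to the lymph node homing receptor Ccr7 (-0.27 ± 0.17). In wild-type mice the 12 ligands had a median of -0.06 (7 lower) and the 11 receptors of -0.01 (7 lower), with 0 past the threshold in either.

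Regulators of chemokine genes and the signalling genes behind their receptors were read in the same way. NF-kB is a transcription factor family that induces many chemokines. Of 13 genes of NF-kB subunits and regulators, 11 were lower in e/e mice given NDP-MSH (median -0.17), 0 passed, with the lowest p for the kinase gene Ikbke (-0.31 ± 0.14) and the inhibitor gene Tnfaip3 (-0.36 ± 0.17). Of 17 genes of chemokine receptor signalling 12 were lower (median -0.16) and 0 passed. Stat3 (-0.40 ± 0.20) and the leukocyte GTPase gene Rac2 (-0.59 ± 0.31) had the smallest p there. Of all genes 46.3% were lower. The signalling list had array medians of -0.24 and 0.05 on e/e PBS 1 and 2, then -0.17 and -0.18 under NDP-MSH. The NF-kB list had -0.07 and 0.10, then -0.11 and -0.25. Rac2 lay at -1.20 on e/e PBS 1 and -0.06 on e/e PBS 2, and at -1.19 and -1.25 under NDP-MSH. For NDP-MSH in wild-type mice the NF-kB and signalling lists had median differences of -0.03 (8 of 13 lower) and -0.04 (10 of 17 lower). There 0 passed in either (limma), and the engulfment adaptor gene Elmo1 had the smallest p (-0.35 ± 0.09, adjusted p = 0.249). Under PBS, 9 of 13 NF-kB genes (median -0.15) and 16 of 17 signalling genes (-0.18) were lower in e/e than in wild-type mice. Of all genes 49.9% were, and 0 passed in either list.

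Markers of infiltrating cells were read on the same arrays. The median of the 9 genes was 0.01 and 0.09 under PBS and 0.58 and 0.18 under NDP-MSH in wild-type mice. The e/e mice had -0.48 and 0.24 under PBS, then -0.82 and -0.88 under NDP-MSH. The median of 10 monocyte and macrophage markers was 0.14 to 0.49 on wild-type arrays and 0.17 on e/e PBS 2. On e/e PBS 1 it was -0.88, and on the e/e NDP-MSH arrays -0.95 and -0.93, and all 10 were below 0 on these 3 arrays. The 6 T cell markers were all below 0 on the same 3 arrays, with medians of -0.27, -0.35 and -0.57, against -0.01 to 0.47 elsewhere. Microglia markers, 7 in number, had medians of 0.03 to 0.29 on wild-type arrays and -0.22 to -0.06 on all 4 e/e arrays, e/e PBS 2 among them (-0.10). The 7 neutrophil markers had medians of -0.24 to 0.19, with e/e PBS 1 at 0.11 and the e/e NDP-MSH arrays at 0.05 and -0.24. Of the monocyte markers 9 of 10 were lower in e/e mice given NDP-MSH, with a median of -0.80, as were 6 of 6 T cell markers (-0.34), 7 of 7 neutrophil markers (-0.15) and 4 of 7 microglia markers (-0.01), and 0 passed in each (limma). The chitinase-like macrophage gene Chil3 had the lowest p among the monocyte markers (-1.82 ± 0.45, unadjusted p = 0.00438, not past the threshold). Under PBS, 10 of 10 monocyte, 7 of 7 microglia and 6 of 6 T cell markers were lower in e/e mice (medians -0.47, -0.34 and -0.15), while 6 of 7 neutrophil markers were higher (0.14), 0 passed in each, and 49.9% of all genes were lower. For NDP-MSH in wild-type mice the monocyte markers had a median difference of 0.01 (5 of 10 higher), beside 0.31 for the 9 genes, and the T cell markers 0.15 (6 of 6 higher), 0 past the threshold in either. The part of cell numbers in the chemokine values was not tested, and the centred values do not show which markers were near background.

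**Figure D5:**
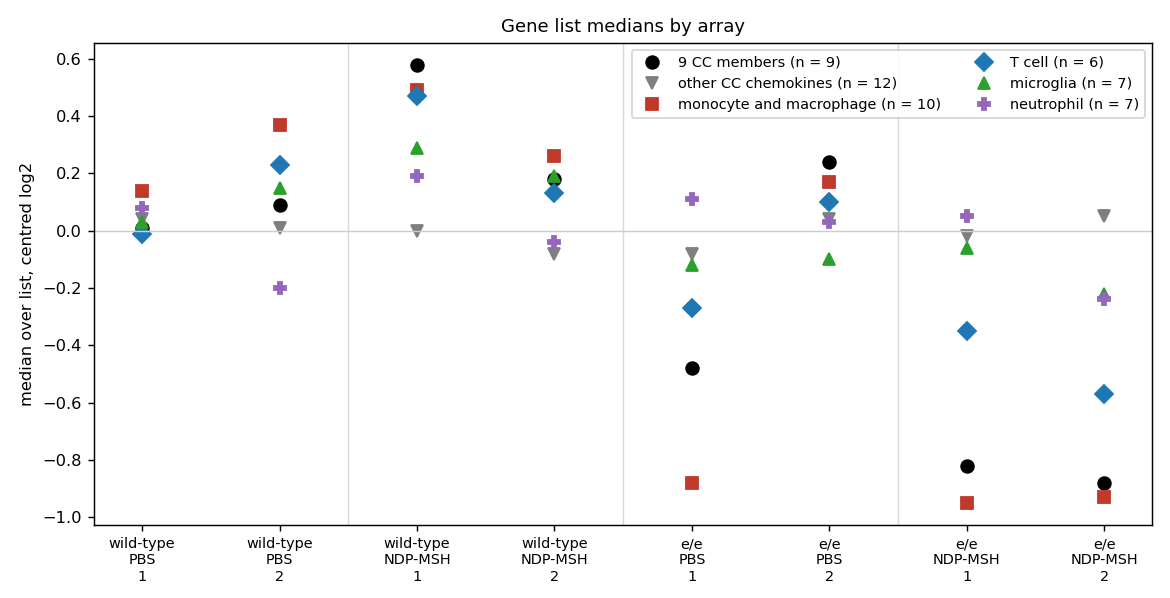
Median centred log2 value (vertical axis) of the 9 genes and of 5 gene lists on each array (horizontal axis), with the number of genes in each list. The 9 genes, the monocyte and macrophage markers and the T cell markers are lowest in e/e PBS 1 and the e/e NDP-MSH arrays, and the neutrophil markers are at 0.11 in e/e PBS 1.

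The genes with the most similar pattern were ranked by Pearson r with the per-array median of the 9, over 8 arrays, among 710 other genes whose range was at least 1. The 10 nearest were Sting1 (r = 0.983), the adaptor of cytosolic DNA sensing, Cyp1b1 (0.983), the interferon-inducible Ifi209 (0.983), the lipopolysaccharide co-receptor gene Cd14 (0.982), the leukocyte proteoglycan gene Srgn (0.98), Gm8995 (0.975), the Fc receptor gene Fcgr3 (0.975), the leukocyte tetraspanin gene Cd53 (0.972), the T cell receptor subunit gene Cd3g (0.97) and Fxyd5 (0.97). This is a description of likeness, since the points share arrays that fall apart into high and low ones, and 186 of the 710 had r of at least 0.9. Sting1, for example, was at -0.87 and 0.16 on the e/e PBS arrays and at -1.22 and -1.21 on the e/e NDP-MSH arrays. Among the 9 themselves, r with the median of the other 8 was 0.93 for Ccl2 and Ccl12, 0.91 for Ccl5, Ccr1 and Ccr2, 0.89 for Ccl8, 0.85 for Ccl3 and 0.76 for Ccl7, and -0.44 for Ccl4, whose own range was 0.33.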

How the data were processed

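Total brain RNA of 8 samples was labelled as biotinylated cDNA and measured on Affymetrix arrays, per the labels' protocols. The deposited log2 values are the authors' processed values of 33793 probe sets. Base 2 is assumed. How signals were summarised, normalized and filtered is not given in the sources used here. Rows were centred on their medians (largest absolute row median 5e-07). Of the probe sets, 23521 had 1 gene symbol in the platform annotation, the 1814 with several symbols were not used, and 8458 are unnamed here. Probe sets of a gene were averaged, giving 22180 genes. The number of arrays limits the precision.

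limma 3.58.1 in R 4.3.3 was fitted to all 8 arrays with a mean for each group (residual degrees of freedom 4, prior 3.45), two-sided, with Benjamini-Hochberg adjustment over all genes at 0.05, and was tested on simulated data. The 9 genes and all gene lists were chosen with earlier results of these data known. Named beside the 9 were, per list and comparison, up to 4 genes past the threshold or otherwise the 2 smallest p values, plus array checks and the 10 most alike genes. Lists not described elsewhere had these medians for NDP-MSH minus PBS in wild-type and e/e mice: neuron 0.05 and 0.11, astrocyte -0.03 and 0.03, oligodendrocyte -0.33 and 0.08, cerebellum -2.68 and -0.15 and pituitary 2.65 and 0.07. Of these only the cerebellum genes passed (4 of 4 fell in wild-type). Alternatives were another normalization or centring, a signal filter, other gene summaries, array weights, robust moderation, fewer arrays and a replicate block. Slide and scan date were not used here. Figures were drawn with matplotlib 3.10.9.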

Additional observations from a re-analysis of the deposited data

Results flagged for a closer look

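For 2 of the 9 genes, Ccl2 and Ccl8, both wild-type NDP-MSH arrays lay above both wild-type PBS arrays while both e/e NDP-MSH arrays lay below both e/e PBS arrays, so the treated arrays lay on opposite sides of their controls in the 2 genotypes. The difference of effects was 1.58 ± 0.77 for Ccl2 and 1.03 ± 0.22 for Ccl8, and neither passed the test of the difference (limma, adjusted p = 0.682 and 0.416). This pattern held for 704 of all genes (3.17%), and opposite sides in either direction, which is what was flagged, for 1427 (6.43%). The cerebellar difference in wild-type mice and the sex-linked one in e/e mice cannot be told apart from treatment here. For Ccl2 the separation in e/e mice rests on 0.01 between the lower PBS array (-1.08) and the higher NDP-MSH array (-1.09).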

How the results depend on the processing

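For the 9 genes, 542 values under the alternatives kept their direction and their side of the threshold, 8 came to pass it and 17 changed sign. Many of the 542 could not have changed direction, so their number does not measure stability. Each of the 9 has 1 probe set, so the other gene summaries return the same difference. Array weights were equal within each group and also leave it unchanged. So do robust moderation, the replicate block and leaving out arrays of groups not compared. The filter at a signal of 8 or above could not be read for the 9, all of which fall in the lower class. Leaving out arrays changed most. In e/e mice 0 to 5 of the 9 passed (5 without e/e PBS 1), and 0 to 3 for the difference of effects (3 without e/e PBS 1). Their e/e median lay at -1.17 without the first e/e PBS array and at -0.18 without the second. Signs turned within these ranges: in wild-type mice Ccl4 (-0.16 to 0.01), in e/e mice Ccl4 (-0.08 to 0.04), Ccl7 (-1.31 to 0.06) and Ccr1 (-0.50 to 0.02), in the difference of effects Ccl4 (-0.14 to 0.04) and Ccl5 (-0.20 to 2.47), and under PBS Ccl2 (-1.08 to 0.99), Ccl12 (-0.87 to 1.04), Ccl7 (-0.48 to 0.88), Ccl3 (-0.52 to 0.03), Ccr1 (-0.39 to 0.14) and Ccr2 (-0.79 to 0.00).

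Over all genes, 39 passed in wild-type mice, 20 after quantile normalization, 22 with every probe set its own feature, 5 with only the 4 arrays compared and 0 to 49 leaving out 1 array (0 without wild-type PBS 2). In e/e mice it was 0, and 0 to 51 leaving out 1 array (51 without e/e PBS 1), for the difference of effects 0, with 1 after quantile normalization, 3 at a signal of 8 or above and 0 to 7 leaving out 1 array, and under PBS 0, with 0 to 4. The cause was not tested. Deviations from group means correlated between -0.251 and 0.443 across groups, highest between wild-type PBS and e/e PBS. With 2 arrays in each group this cannot show whether the replicate number pairs the samples. With that number as a replicate block 14 genes passed in wild-type mice and 0 in the other comparisons, and the block changed no call of the 9.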
